A study of Homo sapiens with 6 samples.

Results

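Surface antigens that tell naive from primed human pluripotent stem cells were followed through bulk RNA-seq. They comprise 9 genes: SUSD2, CD7, CD70, A4GALT, F11R, PODXL, B3GAT1, CD24 and THY1. Each encodes a surface protein or the enzyme that makes a surface glycan, and each was matched by its gene name among the 48183 names of the deposited count table, where every one of the 9 has a single Ensembl identifier. The study asked whether activating AMPK with AICAR, or its effector p38, converts primed human embryonic stem cells to the naive state. Polyadenylated RNA was sequenced from 6 libraries, 4 of naive and 2 of primed cells.

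All cells descend from one human embryonic stem cell line carrying the EOS reporter, in which GFP is driven by an OCT4 distal enhancer construct. The sample labels call this line H1, while the text of the study calls it H9. AICAR, an AMPK activator, was used for 2 naive libraries, called AICAR 1 and AICAR 2 here. VPA (valproic acid), a histone deacetylase inhibitor, was used for 1. Both treatments started from the H1-EOS line, whose untreated cells gave the primed EOS library. A doxycycline-inducible, constitutively active p38 (CA-p38) was used for the last naive library. Its own line before conversion gave the primed CA-p38 library. To make that line, cells were given doxycycline and sorted for the mCherry reporter of the construct. After conversion, naive cells were grown for many passages in PXGL medium, by the study's general methods on mouse feeder cells. For CA-p38 cells the study also describes a later move to culture without feeders. AICAR-induced cells kept long without feeders were used in its single-cell sequencing. It names no feeder for the RNA-seq libraries. RNA came from naive cells that FACS had selected as positive for CD75 and SUSD2. Primed cells had grown in StemFit AK02N on Matrigel and were not sorted for RNA. State, medium, sorting and any feeder cells therefore change together and cannot be told apart. Nothing in the labels says that the libraries of a state are separate cultures of one kind. A figure legend of the study lists AICAR cells at consecutive passages after the same days of induction. For VPA and CA-p38 cells that legend gives shorter inductions and fewer passages. VPA was also given in a medium other than PXGL. Induction method, induction length and passage number therefore change together among the naive libraries. Whether AICAR 1 and AICAR 2 share a conversion is not stated. The naive group may therefore hold fewer independent conversions than libraries. The p-values measure the spread between the libraries of a state, which in the naive group includes the induction method. In such bulk samples, fewer cells carrying a transcript and less of it per cell cannot be told apart.

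Naive cells resemble the epiblast before implantation, primed cells the epiblast after it. Because the states differ in their surface proteins and glycans, antibodies can separate living cells of either kind. Some of these antibodies see a protein, such as SUSD2, CD7, CD24 or THY1 (CD90). Others see a sugar whose presence depends on an enzyme. CD77 is the glycolipid globotriaosylceramide, made by the galactosyltransferase A4GALT, and CD57 is the HNK-1 carbohydrate, for which the glucuronyltransferase B3GAT1 adds the key residue. PODXL (podocalyxin) is a sialomucin that carries the TRA-1-60 and TRA-1-81 glycan epitopes of pluripotent cells. RNA levels of an enzyme are not levels of the glycan, which these libraries do not measure. The study stained CD57 by flow cytometry at the end of induction, before the later passages. It found most AICAR-treated cells negative, and with CA-p38 a small CD57-negative population that carried naive markers.

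Total counts per library ran from 46823699 to 54277064, so that 3 counts, the limit that a count of 0 allows, correspond to 0.0553 to 0.0641 CPM (counts scaled to a common library total). State markers followed the labels. DPPA5 and DPPA3, germline and naive-state genes, had at least 604 and 342 CPM in naive libraries and at most 0.384 and 0.666 CPM in primed ones, and SFRP2 had at least 475 CPM in primed and at most 0.625 CPM in naive libraries. POU5F1 (OCT4), which both states need, had 1472 to 1711 CPM throughout. Counts of the 2 AICAR libraries differed beyond sampling noise, with a chi-square per gene of 21.1, within the 19.8 to 35.9 of the other naive pairs.

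Promoter sequences of the RefSeq table were matched for 3 of the 9 genes, A4GALT, CD24 and B3GAT1. One each is shown because A4GALT rose in naive cells while CD24 and B3GAT1 fell. Each runs from 250 bases before to 50 after an annotated start (GRCh38.p14, all on the minus strand), with matches to GCCNNNGGC, a core of the TFAP2 motif, in capitals. TFAP2 factors are active in naive cells. The A4GALT stretch is chr22:42720821-42721120, that of CD24 is chr6:106975416-106975715 and that of B3GAT1 is chr11:134412193-134412492.
A4GALT: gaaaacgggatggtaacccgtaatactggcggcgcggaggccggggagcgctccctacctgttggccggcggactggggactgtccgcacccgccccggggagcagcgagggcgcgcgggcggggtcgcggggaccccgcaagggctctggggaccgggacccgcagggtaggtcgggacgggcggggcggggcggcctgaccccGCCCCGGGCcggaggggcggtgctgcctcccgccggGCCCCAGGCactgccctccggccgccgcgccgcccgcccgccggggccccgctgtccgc
CD24: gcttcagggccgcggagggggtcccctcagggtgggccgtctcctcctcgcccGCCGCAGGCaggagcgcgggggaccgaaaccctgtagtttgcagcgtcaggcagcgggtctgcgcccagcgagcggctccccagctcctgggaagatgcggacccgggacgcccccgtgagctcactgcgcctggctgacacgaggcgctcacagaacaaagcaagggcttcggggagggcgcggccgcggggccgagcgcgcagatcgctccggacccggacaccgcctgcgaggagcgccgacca
B3GAT1: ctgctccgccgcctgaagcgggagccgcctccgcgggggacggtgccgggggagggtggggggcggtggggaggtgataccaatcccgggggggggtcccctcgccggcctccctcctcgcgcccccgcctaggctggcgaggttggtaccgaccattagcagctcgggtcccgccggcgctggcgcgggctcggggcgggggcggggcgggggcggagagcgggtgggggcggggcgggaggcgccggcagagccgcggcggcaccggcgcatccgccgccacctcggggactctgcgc

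The A4GALT stretch held 2 matches, which begin 45 and 9 bases before the start, the CD24 stretch 1 and the B3GAT1 stretch 0. Of all 35116 promoters of the table, 23.2% held the motif. Further motifs were searched on both strands. The KLF motif GGGNGTGG is in 17.2% of all promoters. The TATA box was read as TATAAA, which is in 11.5% of them. The E-box was read as CACGTG, in 7.26% of them. None of these 3 was found in these stretches, nor in the remaining A4GALT and CD24 entries. One of those, another A4GALT start, had no TFAP2 match. Of the 2 further CD24 starts, 1 had the match shown above, there 35 bases before the start, and 1 had none. In the stretches shown, GC content was 81.0% for A4GALT, 81.0% for B3GAT1 and 73.7% for CD24, against a median of 58.7% over all promoters. The other A4GALT start had 43.3%, and the 2 further CD24 starts had 66.7% and 63.3%. Which starts these cells use was not tested. A match is a description of letters and not a bound site, and the direction of a gene cannot be read from it.

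Between naive and primed libraries, 5 of the 9 antigen genes were higher and 4 lower in naive cells, and each of the 9 passed the test (edgeR's quasi-likelihood test, adjusted p under 0.05 over all 26497 genes tested). This is a contrast in which 53.1% of all genes were called, 26% higher and 27% lower. In each of the 9 genes the naive and primed libraries did not overlap, as they did not in 64.9% of all genes. The test alone therefore sets these genes little apart from the rest, and the sizes of their changes are more unlike. A log2 fold change at least as high as that of SUSD2 was seen in 0.687% of all genes, and one at least as low as that of THY1 in 0.132%. For F11R the share was 12.1%.

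**Figure D1:**
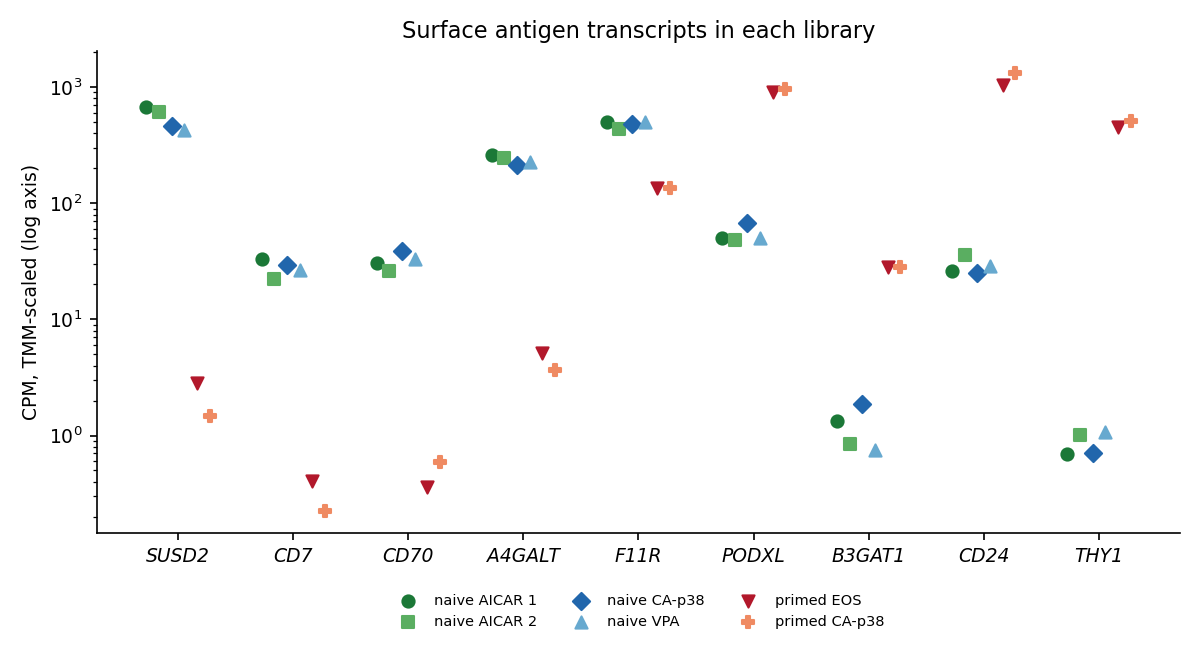
TMM-scaled CPM (vertical, log axis) of the 9 genes in each of the 6 libraries, with 1 point per library. SUSD2, CD7, CD70, A4GALT and F11R lie higher in all 4 naive libraries, and PODXL, B3GAT1, CD24 and THY1 higher in both primed libraries.

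SUSD2, a single-pass membrane protein with a sushi domain (chromosome 22, 24181487 to 24189106, plus strand), is the protein on which the naive cells were sorted. AICAR 1 and AICAR 2 held 668 and 613 CPM of it, the CA-p38 library 463 and the VPA library 427, while the primed EOS library held 2.83 and the primed CA-p38 library 1.47. Both AICAR libraries lay above the CA-p38 and VPA libraries. The means were 543 ± 116 CPM (SD, n = 4) and 2.15 ± 0.959 CPM (SD, n = 2), a log2 fold change of 7.98 (SE 0.31) with an adjusted p of 5.42e-10 by edgeR. Since the sort chose cells by this protein, the difference is not independent of how the samples were made. A SUSD2 pseudogene held at most 31 counts in any library.

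CD7, an immunoglobulin superfamily protein best known from T and NK cells (chromosome 17, 82314868 to 82317608, minus strand), was not used in the sort. Its naive levels were 33.1 and 22.5 CPM in AICAR 1 and AICAR 2, 29.4 CPM with CA-p38 and 26.8 CPM with VPA. Only 20 counts (0.404 CPM) were found in primed EOS and 11 counts (0.225 CPM) in primed CA-p38. The naive libraries lay within 1.47 times of each other, and the lowest of them far above both primed ones. This is a log2 fold change of 6.46 (SE 0.30), at an adjusted p of 1.89e-09 by edgeR.

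CD70, a TNF family ligand of lymphoid cells (chromosome 19, 6583183 to 6604103, minus strand), reached 39.1 CPM in the CA-p38 library, 32.8 with VPA, and 30.7 and 26 in AICAR 1 and AICAR 2. Primed EOS had 0.364 CPM (18 counts) and primed CA-p38 0.593 CPM (29 counts). Naive and primed levels were again far apart, by 6.07 on the log2 scale (SE 0.28, adjusted p = 1.97e-09 by edgeR). CD70 was highest in the CA-p38 library, CD7 in AICAR 1. CD27, the receptor of CD70, had 0 counts in all 4 naive libraries and at most 0.162 CPM in primed ones, and did not pass the filter on low counts.

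Because CD7 and CD70 are antigens of lymphocytes, lymphoid markers were examined. CD2 had 0 counts in every library, and PTPRC, CD3D, CD3E, CD5 and MS4A1 stayed at or under 0.283 CPM. CD3G, a chain of the T cell receptor complex, had 1.82 to 3.04 CPM in naive and 0.858 to 1.07 CPM in primed libraries, a log2 difference of 1.29 (adjusted p = 0.00717 by edgeR). Without the primed CA-p38 library CD3G was no longer called (adjusted p = 0.0658, the highest over its alternatives). The part of such transcripts in the CD7 and CD70 levels was not tested.

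A4GALT, the enzyme of CD77 (chromosome 22, 42692121 to 42721298, minus strand), was measured at 259 and 245 CPM in AICAR 1 and AICAR 2, at 226 CPM with VPA and at 212 CPM with CA-p38. The primed levels were 5.17 CPM (EOS) and 3.70 CPM (CA-p38). The naive libraries differed by at most 1.22 times, the second smallest spread of the 9 genes. They exceeded the primed ones by 5.73 on the log2 scale (SE 0.18, adjusted p = 8.44e-11 by edgeR). The neighbouring CYB5R3 shares 74 exon bases with A4GALT on the same strand, and had 118 to 131 CPM in naive and 145 to 160 CPM in primed libraries.

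F11R, also called JAM-A or CD321, is an adhesion protein of tight junctions (chromosome 1, 160995211 to 161021343, minus strand). It was well expressed in both states, with 504 CPM in the VPA library, 503 and 437 in AICAR 1 and AICAR 2, and 483 with CA-p38, against 135 in both primed libraries. Its log2 fold change of 1.84 (SE 0.10, adjusted p = 1.23e-08 by edgeR) was the smallest of the 9 in size. The naive libraries, at 482 ± 31.6 CPM (SD, n = 4), nonetheless all lay above the primed ones. ENSG00000270149, a protein-coding gene on the same strand, shares 1853 exon bases with F11R, and reads of that stretch could be counted on either. It had 79.7 to 90.7 CPM in naive and 24.1 to 27.8 CPM in primed libraries. The sum of the pair was 516 to 594 CPM in naive and 159 to 163 CPM in primed cells.

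THY1, or CD90, is a GPI-anchored immunoglobulin superfamily protein of neurons, fibroblasts and primed pluripotent cells (chromosome 11, 119415476 to 119424985, minus strand). It stood at 457 CPM in the EOS and 506 CPM in the CA-p38 primed library. Among naive libraries VPA held 1.07 CPM (56 counts), CA-p38 0.712 CPM (36 counts), AICAR 1 0.699 CPM (38 counts) and AICAR 2 1.01 CPM (50 counts). The states differed by a log2 fold change of -9.11 (SE 0.16, adjusted p = 5.46e-12 by edgeR), the largest in size of the 9. THY1-AS1, on the opposite strand with 632 shared exon bases, moved with it, from 27.4 and 35.6 CPM in primed to at most 0.0201 CPM in naive libraries. USP2-AS1, which shares 232 bases, had 1.59 to 2.69 CPM in all libraries, more than THY1 itself in naive cells. Whether counting used strand is not given in the sources used here, so part of the remaining naive THY1 counts could belong to it.

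As THY1 also marks fibroblasts, 8 fibroblast markers were examined, of which 4 were called lower and 0 called higher in naive cells. Their summed level was 191 to 209 CPM in primed and 30.9 to 72.9 CPM in naive libraries, highest among the naive in CA-p38. COL1A1, COL1A2, POSTN and PDGFRB fell, with PDGFRB at 16.3 to 17.2 CPM in primed and at most 0.181 CPM in naive libraries. COL3A1 was higher in naive cells without being called, with 3.57 to 7.04 CPM in VPA, AICAR 1 and AICAR 2, 16.6 CPM in CA-p38 and 2.19 to 4.75 CPM in primed libraries (log2 fold change 1.22, adjusted p = 0.0707, from 0.00114 to 0.375 over the alternatives). It was called without VPA and with no filter on low counts. DCN and LUM, defining fibroblast proteoglycans, were low everywhere and were not called. DCN had 0.764 to 1.21 CPM in naive and 0.511 to 0.566 CPM in primed libraries. LUM had 1.17 CPM in CA-p38, 0.313 CPM in AICAR 1, 0 in VPA and AICAR 2, and at most 0.121 CPM in primed libraries. FAP had at most 0.0402 CPM. The part of such transcripts in the THY1 level was not tested.

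CD24, a small GPI-anchored sialoglycoprotein (chromosome 6, 106969831 to 106975627, minus strand), had primed levels of 1046 CPM in the EOS and 1332 CPM in the CA-p38 library. Naive levels were 35.8 and 26 CPM in AICAR 2 and AICAR 1, 28.7 CPM with VPA and 24.9 CPM with CA-p38. The fall was -5.36 on the log2 scale (SE 0.15, adjusted p = 3.31e-11 by edgeR). No naive library had fewer than 1261 counts of CD24, where THY1 had at most 56. The 3 listed pseudogenes of CD24 held at most 20 counts together in any library, and reads shared with them were not separated.

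PODXL (chromosome 7, 131500262 to 131558217, minus strand) stood at 904 CPM in the EOS and 966 CPM in the CA-p38 primed library. Naive levels were 68.2 CPM with CA-p38, 50.3 CPM with VPA, and 50.5 and 48.3 CPM in AICAR 1 and AICAR 2. AICAR 1, AICAR 2 and VPA were nearly equal, and the CA-p38 library stood above them. All 4 lay far below the primed libraries, with a log2 fold change of -4.11 (SE 0.13, adjusted p = 9.75e-11 by edgeR).

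B3GAT1, the enzyme of CD57 (chromosome 11, 134378504 to 134412242, minus strand), had nearly equal levels in the primed EOS (28.1 CPM) and CA-p38 (28.2 CPM) libraries. The naive CA-p38 library held 1.88 CPM, the VPA library 0.745, and AICAR 1 and AICAR 2 held 1.34 and 0.845, from 39 to 95 counts. These naive libraries spread over 2.52 times, the widest of the 9 genes, yet the states did not overlap (log2 fold change -4.55, SE 0.29, adjusted p = 3.84e-08 by edgeR).

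CD57 and CD24 are also found on neural cells, and 6 neural ectoderm markers were examined. PAX6 and SOX1, which define neural ectoderm, were at or under 1.68 CPM in every library and were not called. MAP2, NES and NCAM2 were lower and TUBB3 higher in naive cells. The summed level, mostly of NES and TUBB3, was 243 to 288 CPM in naive and 547 to 647 CPM in primed libraries. The part of such transcripts in the B3GAT1 and CD24 levels was not tested.

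**Figure D2:**
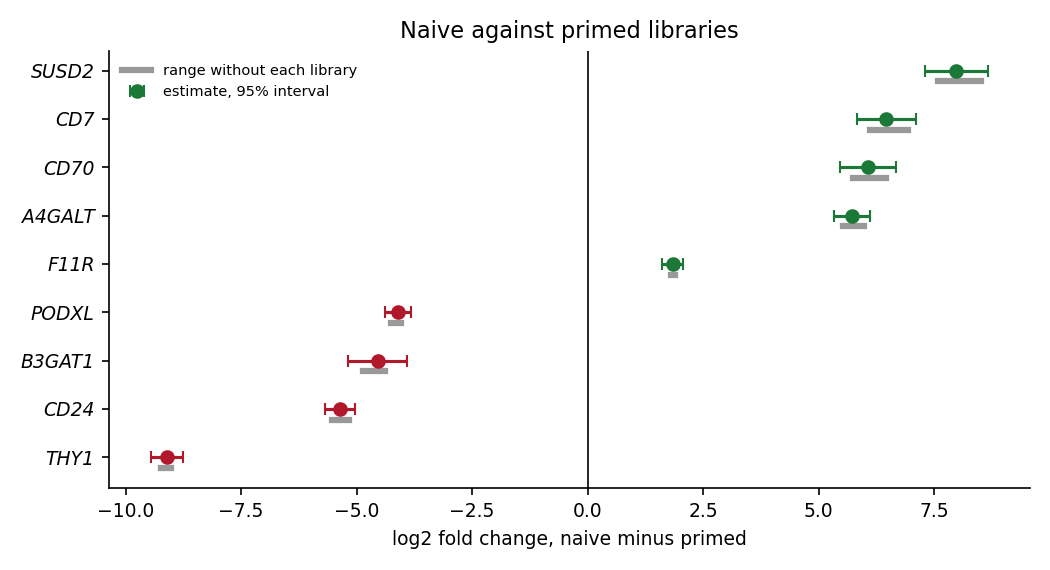
Log2 fold change of naive minus primed libraries (horizontal) for each gene, as points with 95% intervals of the edgeR model (4 naive, 2 primed libraries), green where higher and red where lower in naive cells. Grey bars give the range when each library is left out in turn, which stays on the same side of 0 for all 9 genes, from 7.59 to 8.51 for SUSD2 and from -9.24 to -9.02 for THY1.

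Each naive library was then set against the primed library of its own line, AICAR and VPA against primed EOS and CA-p38 against primed CA-p38. With 1 primed library per line there is no test, and the 95% intervals (exact Clopper-Pearson) cover counting error only. The folds are given without a prior count, since these intervals carry none. For SUSD2 the fold was 236 (200.2 to 281) in AICAR 1, 217 (184 to 258) in AICAR 2, 151 (128 to 180) in VPA and 315 (250 to 402) in CA-p38. The CA-p38 value was the highest although its naive level was below that of both AICAR libraries, since its parental library held 72 counts against 140 in primed EOS. For CD7 the folds ran from 55.6 (35.9 to 91.5) in AICAR 2 to 131 (72.9 to 263) in CA-p38, and for CD70 from 65.9 (45.8 to 98.7) in CA-p38 to 90.2 (56.9 to 153) in VPA. The intervals of CD70 overlapped among all 4 libraries. A4GALT was 43.7-fold (38.6 to 49.6) higher in VPA and 57.3-fold (49.4 to 66.7) in CA-p38, with the AICAR libraries in between. F11R stayed between 3.24-fold (AICAR 2) and 3.74-fold (VPA).

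Among the genes that fell, the primed level of THY1 was 427 times (329 to 566) that of VPA and 711 times (513 to 1015) that of CA-p38. For CD24 it was 29.2 times (27.8 to 30.6) that of AICAR 2 and 53.4 times (50.5 to 56.5) that of CA-p38. For PODXL the order was turned, with 14.2 times (13.7 to 14.7) in CA-p38 and 17.9 to 18.7 times in the others, and for B3GAT1 it was 15 times (12.2 to 18.7) in CA-p38 and 37.8 times (27.5 to 53.3) in VPA. The CA-p38 library had the largest fall of CD24 and the smallest of PODXL and B3GAT1 under every scaling, prior count and reference tried, with counting intervals that overlapped those of AICAR 1 for B3GAT1. For SUSD2, CD7, A4GALT, THY1 and CD70 its place depended on the reference, and for SUSD2, CD7 and CD70 on the prior count as well. Against the mean of both primed libraries, still without a prior count, the log2 fold of SUSD2 was 7.75 in CA-p38 and 8.28 in AICAR 1, and that of CD7 was 6.55 and 6.72. On the same scale A4GALT was lowest in CA-p38 (5.58), CD70 was highest there (6.35), and THY1 had -9.40 in CA-p38 and -9.43 in AICAR 1.

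With a prior count of 0.5 CPM, which pulls in the folds of genes near 0 in one state, CD7 was 25.4 to 41.3 times and CD70 30.7 to 38.5 times higher in naive libraries, and THY1 was 291 to 418 times and B3GAT1 12.1 to 23 times higher in primed ones. Every fold had the same direction in all 4 naive libraries.

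**Figure D3:**
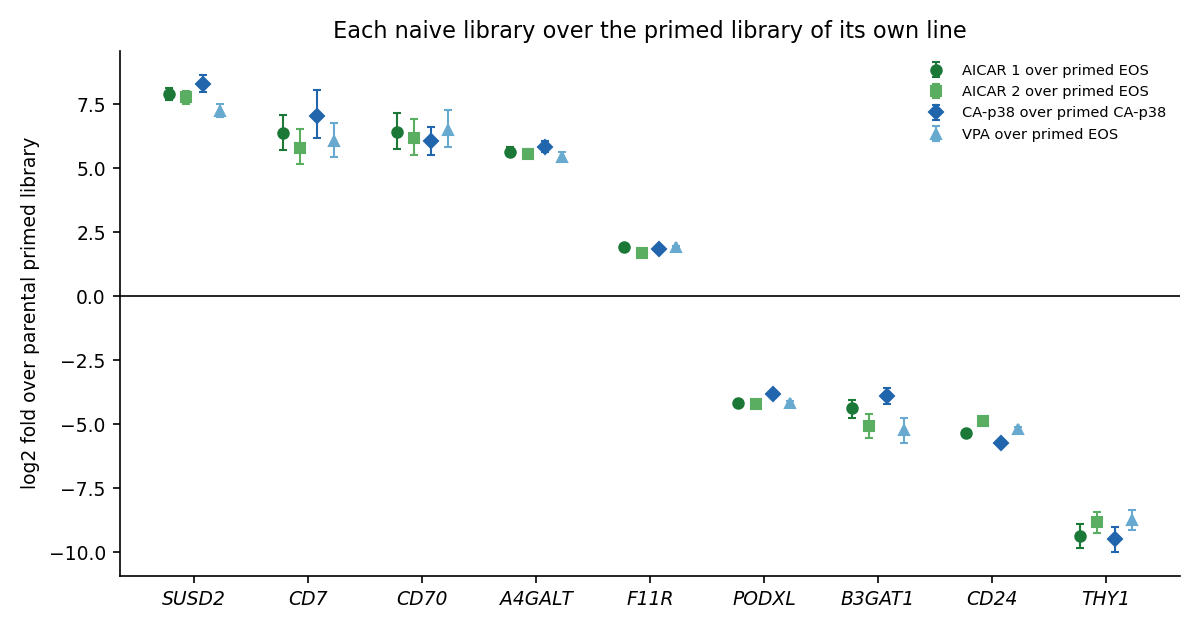
Log2 fold of each naive library over the primed library of its own line (vertical) for the 9 genes, with 95% counting intervals and 1 point per naive library. All 4 points lie above 0 for SUSD2, CD7, CD70, A4GALT and F11R and below 0 for PODXL, B3GAT1, CD24 and THY1.

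To compare genes with each other, levels were divided by the length of the canonical transcript of each gene (CPM per kb). Isoforms other than the canonical one could shift this scale. In naive libraries SUSD2 was highest with 171 ± 36.6 CPM per kb (SD, n = 4), followed by A4GALT with 113 ± 9.94 and F11R with 104 ± 6.81, whose libraries overlapped. CD70 with 35.3 ± 5.95, CD7 with 21.8 ± 3.47, CD24 with 13.4 ± 2.27 and PODXL with 9.07 ± 1.56 CPM per kb came next, without overlap between neighbours. B3GAT1 with 0.303 ± 0.131 and THY1 with 0.194 ± 0.0430 CPM per kb overlapped.

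In primed libraries CD24 was highest, with 485 and 618 CPM per kb, above PODXL (151 and 161) and THY1 (101 and 112). F11R, with 29.1 CPM per kb in both, stood above B3GAT1, with 7.07 and 7.10. A4GALT had 1.77 and 2.47 CPM per kb. SUSD2 (0.464 and 0.891) and CD70 (0.399 and 0.651) overlapped, and CD7 was lowest with 0.175 and 0.315 CPM per kb.

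**Figure D4:**
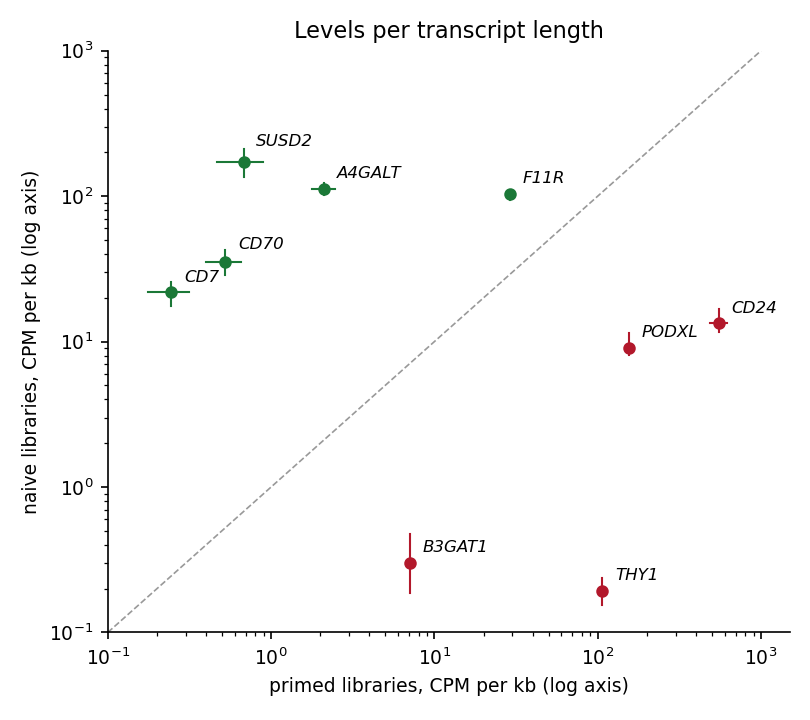
Mean CPM per kb of canonical transcript in primed (horizontal) and naive libraries (vertical), both on log axes, with lines from the lowest to the highest library of each state and a dashed line of equal levels. F11R lies nearest to the line of equal levels among the genes higher in naive cells (green), and THY1 farthest from it among those lower in naive cells (red).

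Genes around the antigens were examined in 8 fixed lists of 68 genes, of which 67 had enough counts to be tested. They were called in 53 cases, 20 higher and 33 lower, and their median log2 fold change was -0.35 against 0.11 over all genes tested. Over all genes tested 53.1% were called, 26% higher and 27% lower, and the counts of each list below stand against those shares. Leaving out libraries or changing scaling or test ended the call somewhere for 7 of the 53 (B3GAT2, B3GNT2, CD34, SIGLEC10, GPAA1, TFRC and CD63), and none of the 53 changed direction.

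The glycolipid list holds 12 enzymes before, beside and after A4GALT, of which 2 rose, 6 fell and 4 were not called (median log2 fold change -0.42). UGCG, which makes glucosylceramide, the first step of the pathway, rose from 26.4 and 31.4 CPM in primed to 99.9 to 129 CPM in naive libraries (log2 fold change 1.97, adjusted p = 9.34e-08, edgeR). The lactosylceramide synthases that make the substrate of A4GALT fell, with log2 fold changes of -0.96 for B4GALT5 and -2.32 for B4GALT6. Of the enzymes that extend the product, B3GALNT1, the globoside synthase, had 7.38 and 11.4 CPM in primed and 3.86 to 4.54 CPM in naive libraries (log2 fold change -1.18, adjusted p = 0.000769). B3GALT5, which makes the SSEA-3 structure, fell from 61.6 and 70.9 CPM to between 0.890 and 1.67 CPM (log2 fold change -5.70, adjusted p = 2.63e-10). ST3GAL2, the sialyltransferase of SSEA-4, had -0.58 (adjusted p = 0.00195). GLA, the lysosomal enzyme that degrades the CD77 glycolipid, was not called, with 23.8 to 25.4 CPM in naive and 27 to 29 CPM in primed libraries.

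All 5 genes of the HNK-1 list fell, with a median log2 fold change of -2.03. CHST10, which adds the sulphate that completes the CD57 epitope, went from 33.9 and 35.5 CPM in primed to between 7.58 and 9.24 CPM in naive libraries (log2 fold change -2.03, adjusted p = 1.15e-07, edgeR). B3GAT2, the second enzyme with the activity of B3GAT1, had -0.76 (adjusted p = 0.00703), which was not called without the primed EOS library (adjusted p = 0.0715, the highest over its alternatives). Of the proteins that carry HNK-1, NCAM1, L1CAM and PTPRZ1 had log2 fold changes of -5.82, -1.48 and -9.47. PTPRZ1, a receptor phosphatase, had 342 and 364 CPM in primed and at most 0.809 CPM in naive libraries.

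The list of enzymes for keratan sulphate and poly-N-acetyllactosamine, chains on which the TRA-1 epitopes of PODXL are built, moved otherwise: 4 of 7 rose and 1 fell (median log2 fold change 0.67). CHST2, a sulphotransferase, rose from 18.3 and 21.3 CPM to between 239 and 283 CPM (log2 fold change 3.74, adjusted p = 2.47e-10, edgeR). The galactosyltransferases B4GALT4 and B4GALT1 rose by 2.33 and 1.11 on the log2 scale, and B3GNT7 by 0.67. B3GNT2 had -0.39 (adjusted p = 0.0342, from 0.0162 to 0.338 over the alternatives, with the call lost in 5 of 15, among them those without VPA, AICAR 2 or primed CA-p38). Among kin and partners of PODXL, PODXL2 (endoglycan) fell (log2 fold change -1.77). The scaffold proteins of PODXL differed in direction, with 2.73 for SLC9A3R2 and -0.57 for SLC9A3R1. EZR (ezrin), which ties podocalyxin to actin, was not called, with 479 to 605 CPM in all libraries. CD34, the third member of the family, had 1.88 to 2.98 CPM in naive and 0.949 to 1.10 CPM in primed libraries (log2 fold change 1.10, adjusted p = 0.0171), and was not called without either primed library.

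Of the other junctional adhesion molecules, JAM2 fell from 5.17 and 5.59 CPM to between 0.386 and 1.37 CPM (log2 fold change -2.68, adjusted p = 6.89e-05, edgeR), and JAM3, at 63.2 to 89.7 CPM, was not called. The cytoplasmic partners TJP1 (ZO-1) and AFDN (afadin) fell, with log2 fold changes of -1.02 and -0.58, and PARD3 was not called. Of the GPI transamidase, which attaches the anchor of CD24 and THY1, PIGK, PIGT and PIGU fell (log2 fold changes -0.96, -0.59 and -0.78) and PIGS was not called. GPAA1 had 0.34 (adjusted p = 0.0255, from 0.00492 to 0.130 over the alternatives), a call lost in 7 of 15 alternatives: median-ratio size factors, DESeq2, no filter on low counts, and without VPA, CA-p38 or either primed library. Of the ligands of CD7, SECTM1 was called higher in naive cells (log2 fold change 3.13, adjusted p = 0.00323) at 0.497 to 0.897 CPM in naive and at most 0.141 CPM in primed libraries. Its primed counts were 7 (EOS) and 1 (CA-p38), and the log2 fold change rested on which was kept, at 4.98 without primed EOS and 2.35 without primed CA-p38. LGALS1 (galectin-1) had 24.4 to 32.3 CPM in naive and 14.3 to 17.3 CPM in primed libraries (0.84, adjusted p = 0.00102).

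Of 25 other surface antigens of pluripotent cells, 9 rose, 12 fell and 4 were not called (median log2 fold change -0.18). IL6ST (CD130), the signalling subunit of the LIF receptor, rose from 13.9 and 14.8 CPM to between 122 and 158 CPM (log2 fold change 3.31, adjusted p = 1.10e-09, edgeR). CDH1 (E-cadherin) rose by 2.38 and the tetraspanins CD81, CD151 and CD9 by 1.44, 1.5 and 1.19 on the log2 scale. CDH2 (N-cadherin), CD99, ITGA6 (CD49f) and KIT fell, with log2 fold changes of -7.04, -3.76, -2.49 and -2.2. EPCAM, an epithelial adhesion protein, had 325 and 410 CPM in primed and 152 to 177 CPM in naive libraries (log2 fold change -1.17, adjusted p = 1.58e-06). Of the GPI-anchored complement inhibitors, CD55 rose and CD59 fell, with log2 fold changes of 1.53 and -0.79. PROM1 (CD133), CD47, CD44 and BST2 were not called, with log2 fold changes between -0.18 and 0.24.

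**Figure D5:**
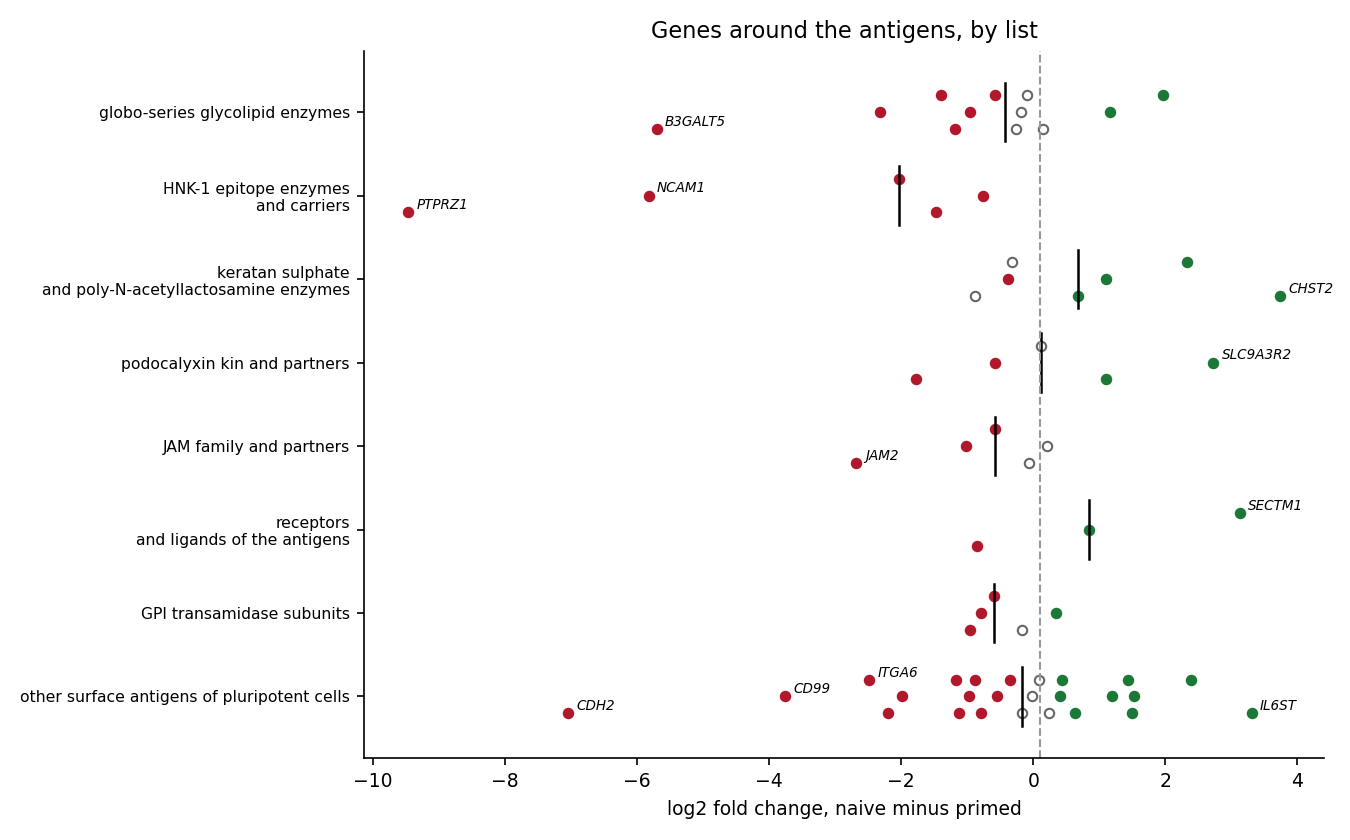
Log2 fold change of naive minus primed libraries (horizontal) for the 67 tested genes of 8 lists (rows), filled green where called higher, filled red where called lower and open where not called, with vertical offsets for legibility only. Black bars are list medians and the dashed line is the median of all genes tested, 0.11. All 5 genes of the HNK-1 list lie below 0, and in the other lists genes lie on both sides.

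For each antigen gene the most similar profiles were sought among 12603 gene names with a mean of at least 5 CPM, by the root mean square difference of centred log2 CPM (prior count 0.5) over the 6 libraries. Such likeness is dominated by the step between states that these genes share, and says nothing of function. The nearest to CD7 were VN1R87P (0.13) and SCUBE2 (0.15), and the nearest to CD70 were FCGBP (0.12) and SLC12A3 (0.13). A4GALT was nearest to ZNF595 (0.11) and PLA2G4F (0.12), SUSD2 had ZNF208 at 0.23, and F11R had NDUFV1 at 0.048 and NUCB1 at 0.049. NDUFV1, a complex I subunit, had 351 to 418 CPM in naive and 101 to 106 CPM in primed libraries. Of the genes that fell, CD24 was nearest to ARHGEF40 (0.14) and PPP2R2B (0.15), THY1 to TNIK (0.17) and DUSP6 (0.27), B3GAT1 to SEL1L3 (0.10) and ELAVL2 (0.14), and PODXL to ITGA5 (0.088) and GNG2 (0.10). ITGA5, the fibronectin receptor subunit, was, like PODXL, highest among naive libraries in CA-p38, with 3.8 CPM there and 2.19 to 2.52 CPM in the others. It was picked for likeness to PODXL over these same libraries, so this is no separate observation.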

How the data were processed

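RNA-seq counts of 6 libraries were analysed. The authors deposited raw counts per Ensembl identifier. Per the methods and labels, Trim Galore 0.4.4 with cutadapt 1.15 removed adapters, Bowtie2 aligned reads to Ensembl transcripts (GRCh38, release 100), and hits of MAPQ 1 or more were counted. RSEM is also named, for RPKM values not used here. Whether strand was used is not given in the sources used here. The table also holds 23 columns of other studies, not used here, and 26 spike-in sequences, left out. Counts of identifiers sharing a name were summed (61196 identifiers, 48183 names). Clone-type names lack their version, so distinct genes can share one.

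The states were tested by edgeR's quasi-likelihood fit (edgeR 4.0.16, R 4.3.3) with TMM scaling, filterByExpr and no covariates, and p-values were adjusted by Benjamini-Hochberg over 26497 genes. CPM are TMM-scaled. Intervals of single-library folds cover counting error only. Those of log2 fold changes were derived from the edgeR model, whose test gives no SE itself. The SE is the size of the unshrunken log2 coefficient divided by the square root of the F statistic. The interval is a t interval of that SE around the reported log2 fold change. Folds over the parental line were planned with a prior count of 0.5 CPM and are given without one beside that. Alternatives were median-ratio size factors, library totals, DESeq2 1.42.0, limma-voom (limma 3.58.1), 2 filters, single identifiers, a block for the parental line, summed AICAR libraries and each library left out. For folds over the parental line they were another prior count, library totals and the mean of both primed libraries. For the naive against primed comparison, a run on simulated data (25574 genes) recovered 88.9% of 4-fold and 31.6% of 2-fold changes at 6 false calls. That run changed only a small share of genes, equally up and down, with the same dispersion for every gene. It had no differences between induction methods. In the data 53.1% of genes were called, so these rates need not hold there. Positions come from GENCODE release 44 (GRCh38).

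The genes and lists were chosen with earlier results of these data known. Named were the 9 genes, genes of the lists, and for each of the 9 the 2 nearest profiles, of which 1, for SUSD2, is not reported here, nor is 1 of the lymphoid markers.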

Additional observations from a re-analysis of the deposited data

Results flagged for a closer look

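PODXL was flagged because 1 of the 4 naive libraries lay far from the rest. It had 68.2 CPM in CA-p38 against 48.3 to 50.5 CPM in the other 3, and the gap of CA-p38 to its nearest neighbour made up 0.888 of the range, above Dixon's 95% limit for 4 samples. It was the only one of the 9 genes past that limit, and chance flags about 1 in 20 groups. CA-p38 is also the only naive library from the CA-p38 line. The primed library of that line had 966 CPM, 1.07 times that of primed EOS.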

How the results depend on the processing

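All 9 antigen genes kept their direction and their call under each of the 15 alternatives, with a highest adjusted p of 7.87e-07 (CD7 with limma-voom), and 5 of the 9 were higher in naive cells each time. With the parental line as the replicate block the number called was 9 as well, and 50 for the list genes. The labels' replicate numbers pair no libraries across states, so the line was the only block. Over all alternatives the list genes called numbered 48 to 53, lowest without either primed library. Leaving out primed EOS or primed CA-p38 gave the widest ranges, 6.11 to 6.93 for CD7, 5.74 to 6.46 for CD70 and 7.59 to 8.51 for SUSD2 on the log2 scale, where the primed libraries hold at most 140 counts. Without 1 of them, the lone primed library is assumed to vary like the naive ones. The mean primed CPM of B3GAT1 and F11R moved by more than its small SD with library totals (26.9 and 129) and median-ratio size factors (28.8 and 138). Each of the 36 folds over the parental line kept its direction. Measured from the value with a prior count of 0.5 CPM, the shift exceeded the counting error in 8 with library totals, 12 with the mean of both primed libraries, 26 with a prior count of 2 and 16 with none. Dropping the prior count, alone (the folds of the text) or with the mean of both primed libraries (28 of 36), was chosen after seeing the data. With 1 to 2 libraries per induction method, differences between methods were not tested.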
